A study of Mus musculus with 10 samples.

Results

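The 10 genes described here belong to fibroblast progenitors and to the elastic matrix of muscle: *Pdgfra*, *Dcn*, *Cd248*, *Pi16*, *Gas1*, *Eln*, *Emilin1*, *Postn*, *C1qtnf1* and *Angptl2*. They are 10 of the 24421 rows of the deposited count table and were found by symbol, 1 row each. Several were chosen because their counts ran higher after ethanol in these same libraries, so their difference between the groups is given below as a description, with standard errors and 95% intervals as its error and no p. The tissue was the gastrocnemius and plantaris of male C57BL/6 mice aged 12 weeks, all fasted for about 16 h. The ethanol group (n = 5, mice 51, 57, 59, 60 and 62) was given 3 g/kg ethanol into the peritoneum, and the saline group (n = 5, mice 32, 34, 36, 38 and 39) was given 0.9% saline in equal volume. Muscle was taken 1 h after the injection, under isoflurane in both groups, and the mice stayed fasted until then. The labels name no batch, litter or pairing.

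Skeletal muscle holds interstitial fibroblasts, often called fibro-adipogenic progenitors, which carry the platelet-derived growth factor (PDGF) receptor alpha, secrete most of the matrix around the fibres and can become fat cells. A subset that sits around vessels and in the fascia is known for *Pi16* and is regarded as a reservoir for other fibroblasts in mouse tissues. Elastic fibres consist of a core of cross-linked elastin on a scaffold of fibrillin microfibrils, with EMILIN1 at the interface of the core and the scaffold. Smooth muscle cells of arteries also make elastin, and fat cells secrete several of the same proteins.

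Library totals ran from 20317959 to 31252438 counts in ethanol and from 32038927 to 42654771 counts in saline, with no overlap. By edgeR's quasi-likelihood test, 0 of 13180 tested genes (0%) passed a false discovery rate (FDR) of 0.05, while 1599 (12.1%) had an unadjusted p under 0.05. DESeq2 called 55 of 11745 genes (0.468%) and limma-voom called 0. Levels are given as CPM, the count of a gene relative to its library's total, scaled between libraries by the trimmed mean of M values. In whole muscle, fewer cells of a type and less RNA per cell cannot be told apart.

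The receptor and the proteoglycan that mark the lineage as a whole had overlapping levels in the groups. *Pdgfra*, the PDGF receptor alpha (chromosome 5, 75152292 to 75198215, plus strand, GRCm38), held 39.4, 32.8, 28.8, 43.8 and 36.9 CPM in ethanol mice 51, 57, 59, 60 and 62, against 37.9, 24.5, 38.1, 35.0 and 30.9 CPM in saline mice 32, 34, 36, 38 and 39. The groups overlapped across most of their range, with ethanol 60 the highest library and saline 34 the lowest. Its mean was 36.3 ± 5.81 CPM in ethanol and 33.3 ± 5.73 CPM in saline (SD, n = 5 each), and the log2 fold change, ethanol minus saline, was 0.13 ± 0.13 (SE, 95% interval -0.16 to 0.41). It was 0.04 without saline 34 and 0.05 without ethanol 60.

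*Dcn*, which encodes decorin, a small leucine-rich proteoglycan that binds collagen fibrils (chromosome 10, 97479609 to 97518143, plus strand), was the most counted of the 10. In the same order of mice it held 602, 607, 445, 568 and 580.1 CPM in ethanol and 605, 448, 631, 629 and 539.9 CPM in saline. Ethanol 59 and saline 34 stood below all others at nearly the same level, and the other libraries of both groups lay close together. The mean was 560.4 ± 66.4 CPM in ethanol and 571 ± 77.9 CPM in saline (SD, n = 5 each), and the log2 difference was -0.03 ± 0.11 (SE, 95% interval -0.26 to 0.21). The sign of this value was not stable: it was 0.04 without ethanol 59, 0.0058 without saline 36, 0.013 without saline 38, 0.02 with scaling by total count and 0.07 with the GC trend removed.

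The 3 progenitor surface and secreted genes stood higher in ethanol. *Cd248*, encoding endosialin, a transmembrane lectin of stromal cells (chromosome 19, 5068078 to 5070682, plus strand), held 16.3, 18.7, 11.6, 16.3 and 15.2 CPM in ethanol, against 10.02, 10.6, 7.82, 6.96 and 11.4 CPM in saline. The groups did not overlap, although ethanol 59, the lowest ethanol library, lay just above saline 39, the highest saline library. The mean was 15.6 ± 2.59 CPM in ethanol and 9.37 ± 1.90 CPM in saline (SD, n = 5 each), and the log2 difference between the groups, ethanol minus saline, was 0.74 ± 0.15 (SE, 95% interval 0.42 to 1.05).

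*Pi16*, encoding a secreted peptidase inhibitor that marks adventitial fibroblasts (chromosome 17, 29317680 to 29330593, plus strand), held 48.9, 54.6, 35.2, 55.6 and 45.4 CPM in ethanol and 39.2, 35.7, 26.7, 32.5 and 37.4 CPM in saline. Ethanol 59 lay among the saline libraries, and the other 4 ethanol libraries lay above all saline ones. The mean was 47.9 ± 8.27 CPM in ethanol and 34.3 ± 4.89 CPM in saline (SD, n = 5 each), and the log2 difference between the groups, ethanol minus saline, was 0.48 ± 0.13 (SE, 95% interval 0.21 to 0.76). With the mean of the adipocyte markers as a covariate this value was 0.24.

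*Gas1*, a lipid-anchored surface protein that acts as a co-receptor for hedgehog ligands (chromosome 13, 60174405 to 60177365, minus strand), held 51.0, 40.4, 45.1, 45.8 and 51.0 CPM in ethanol and 37.1, 31.5, 37.8, 33.3 and 32.5 CPM in saline. No ethanol library reached down to the saline range, and ethanol 57 was the nearest to it. Its mean was 46.6 ± 4.48 CPM in ethanol and 34.4 ± 2.82 CPM in saline (SD, n = 5 each), and the log2 difference was 0.44 ± 0.08 (SE, 95% interval 0.26 to 0.62). Ethanol 57 was at the same time the highest ethanol library for *Cd248*.

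Of the elastic and adhesive matrix genes, *Eln*, which encodes tropoelastin, the soluble unit of elastin (chromosome 5, 134702593 to 134747323, minus strand), held 52.6, 52.0, 43.6, 56.2 and 60.7 CPM in ethanol, against 37.9, 36.1, 45.4, 29.8 and 36.9 CPM in saline. Saline 36 lay above ethanol 59, so the groups overlapped by that pair alone. The mean was 53.0 ± 6.32 CPM in ethanol and 37.2 ± 5.56 CPM in saline (SD, n = 5 each), and the log2 difference between the groups, ethanol minus saline, was 0.51 ± 0.11 (SE, 95% interval 0.28 to 0.75). *Emilin1*, the elastin microfibril interface glycoprotein (chromosome 5, 30913402 to 30921277, plus strand), held 9.08, 8.68, 7.66, 9.31 and 8.67 CPM in ethanol and 7.10, 5.25, 5.45, 5.58 and 6.06 CPM in saline. The groups did not overlap, saline 32 being the one saline library near the ethanol range, and the ethanol libraries lay close together. The mean was 8.68 ± 0.633 CPM in ethanol and 5.89 ± 0.74 CPM in saline (SD, n = 5 each), and the log2 difference between the groups, ethanol minus saline, was 0.56 ± 0.11 (SE, 95% interval 0.33 to 0.79).

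*Postn*, encoding periostin, a matricellular protein that binds collagen and integrins (chromosome 3, 54361109 to 54391037, plus strand), held 7.55, 9.31, 7.19, 12.8 and 6.20 CPM in ethanol and 5.71, 5.66, 4.35, 5.45 and 5.22 CPM in saline. Ethanol 60 stood well above the other ethanol libraries and ethanol 62 lay just above the saline range, so the groups did not overlap but their spreads differed widely. The mean was 8.60 ± 2.58 CPM in ethanol and 5.28 ± 0.556 CPM in saline (SD, n = 5 each), and the log2 difference between the groups, ethanol minus saline, was 0.70 ± 0.17 (SE, 95% interval 0.33 to 1.06). It was 0.52 without ethanol 60, 0.45 without ethanol 60 and saline 36 together, and 0.28 with the adipocyte marker mean as a covariate.

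The secreted factor genes showed the same direction. *C1qtnf1*, encoding CTRP1, a C1q and TNF related protein (chromosome 11, 118428203 to 118449963, plus strand), held 10.7, 13.1, 9.50, 12.6 and 10.3 CPM in ethanol and 8.43, 7.19, 7.54, 6.77 and 7.76 CPM in saline. All ethanol libraries lay above all saline libraries, with ethanol 57 and ethanol 60 the highest. The mean was 11.2 ± 1.54 CPM in ethanol and 7.54 ± 0.623 CPM in saline (SD, n = 5 each), and the log2 difference between the groups, ethanol minus saline, was 0.57 ± 0.11 (SE, 95% interval 0.34 to 0.80). *Angptl2*, an angiopoietin-like glycoprotein of stromal and fat tissue (chromosome 2, 33216069 to 33247717, plus strand), held 16.1, 18.5, 17.4, 17.6 and 14.0 CPM in ethanol and 13.5, 12.0, 10.05, 10.9 and 13.0 CPM in saline. The groups did not overlap, but ethanol 62 was close to saline 32. The mean was 16.7 ± 1.75 CPM in ethanol and 11.9 ± 1.42 CPM in saline (SD, n = 5 each), and the log2 difference between the groups, ethanol minus saline, was 0.49 ± 0.10 (SE, 95% interval 0.27 to 0.71).

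**Figure D1:**
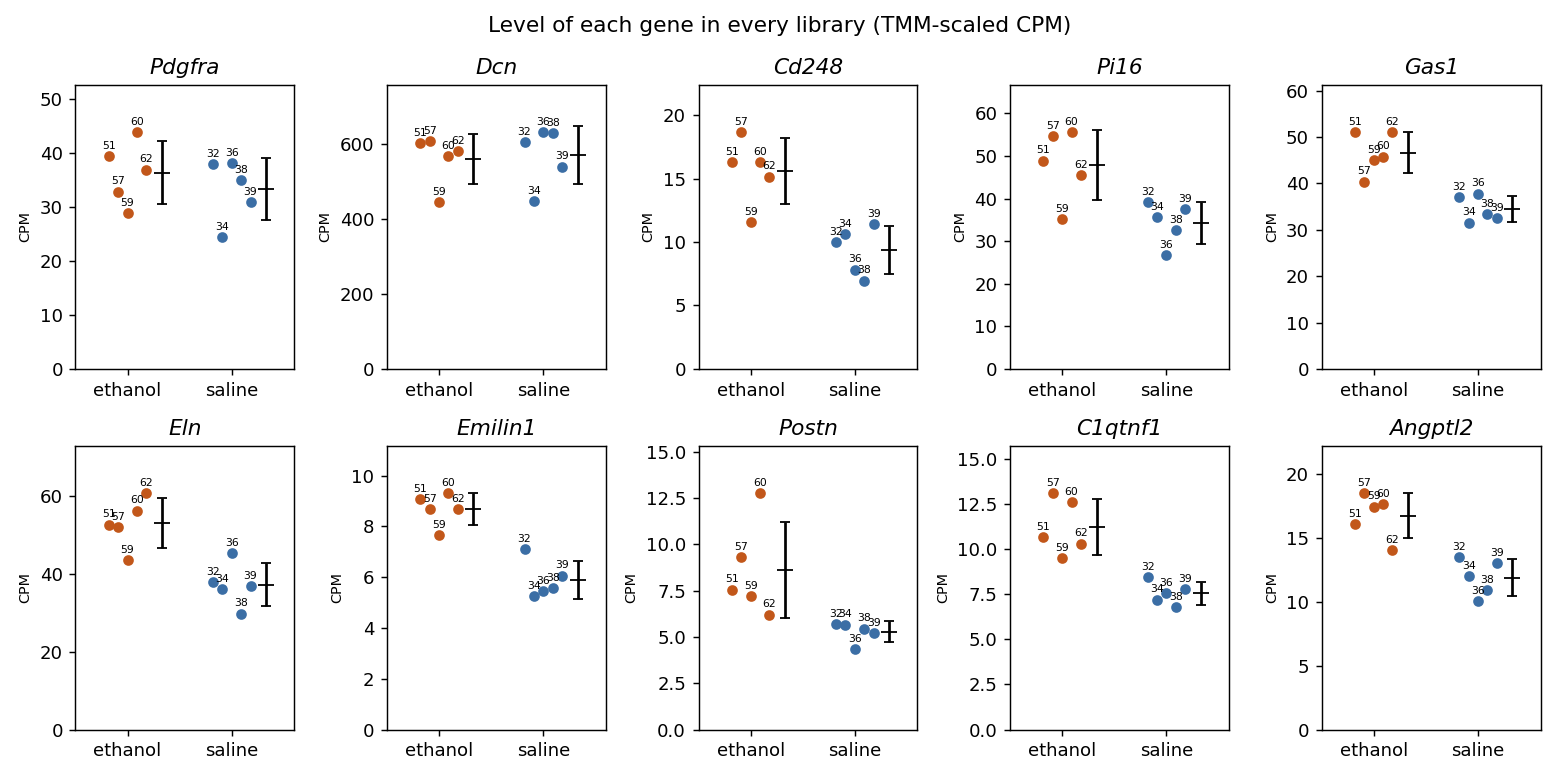
Level of each of the 10 genes in every library, in TMM-scaled CPM on axes that start at 0, with ethanol mice (orange) left of saline mice (blue). Numbers are mouse numbers, and the black bar is the mean with its SD (n = 5 each). The groups of *Pdgfra* and *Dcn* lie over each other, while every ethanol library of *Cd248*, *Gas1*, *Emilin1*, *Postn*, *C1qtnf1* and *Angptl2* is above every saline library.

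Across the 10 genes, 9 log2 fold changes were positive and 1 was negative, with a median of 0.50, where 50.2% of all tested genes were positive and the median was 0.00096. The groups did not overlap, with ethanol higher, for 6 of the 10, against 1.36% of all tested genes (2.18% in either direction). The choice of genes used this contrast, so nothing is read from these counts. Without ethanol 59 the groups did not overlap for 8 genes, *Pi16* and *Eln* being added, and 5 of the 10 did not overlap with libraries thinned to equal depth or with the GC trend removed.

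Transcripts rich in G and C ran higher in the ethanol libraries than in the saline ones. Each gene's log2 CPM was taken as a deviation from its mean over the 10 libraries, so the slopes are relative to one another. The slope of this deviation on transcript GC content was between 0.022 and 0.062 per 10% GC in ethanol and between -0.099 and 0.0066 in saline. The 10 genes differ widely in this respect, at 61.3% GC for *Cd248*, 61.1% for *Emilin1*, 58.8% for *Eln* and 58.4% for *Gas1*, against 37.4% for *Dcn* and 36.3% for *Postn*. Once this trend had been taken out, the log2 fold change was 0.64 for *Cd248*, 0.46 for *Emilin1*, 0.43 for *Eln* and 0.36 for *Gas1*. The 2 AT-rich transcripts moved the other way, to 0.80 for *Postn* and 0.07 for *Dcn*. *C1qtnf1* was at 0.52, *Angptl2* at 0.44, *Pi16* at 0.43 and *Pdgfra* at 0.13. Because the slopes did not overlap between the groups, removing the trend can take up part of the contrast. After thinning to the smallest total the values of the 8 genes other than *Pdgfra* and *Dcn* lay between 0.43 for *Gas1* and 0.77 for *Postn*.

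**Figure D2:**
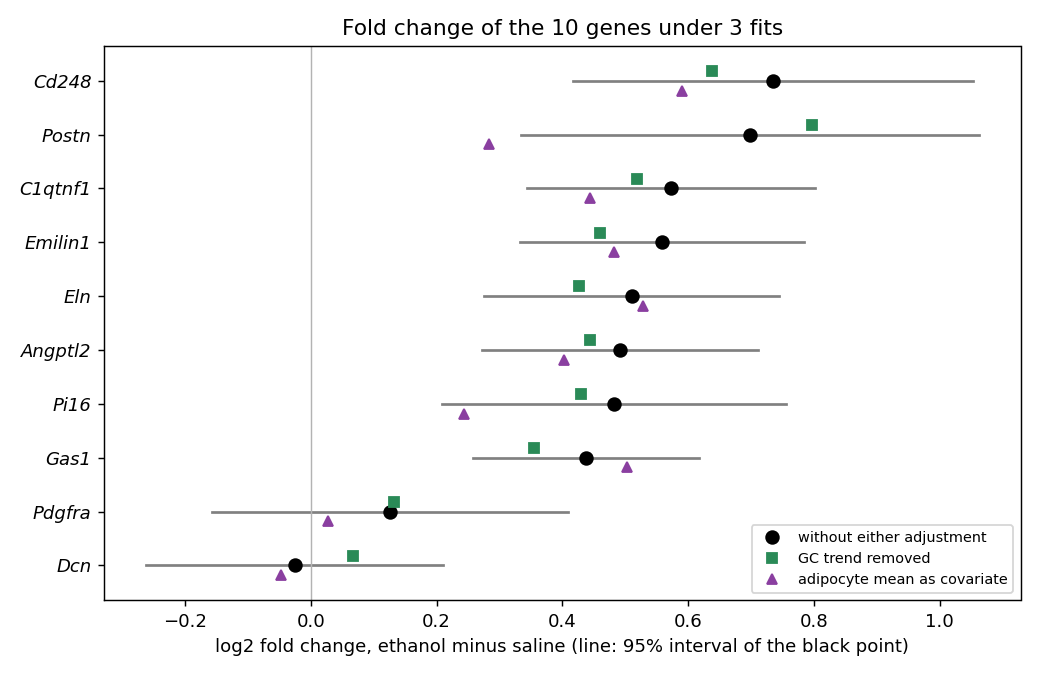
Log2 fold change of each gene, ethanol minus saline (horizontal axis), without either adjustment (black, with its 95% interval), with the GC trend removed (green squares) and with the adipocyte marker mean as a covariate (purple triangles). *Pdgfra* and *Dcn* lie near 0 in all 3 fits, and *Postn* and *Pi16* are the genes whose purple points lie farthest from the black ones.

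Levels between genes were compared per kilobase of exon, as mean CPM per kb. In ethanol the order was *Dcn* (96.0 ± 11.4), *Gas1* (15.7 ± 1.51), *Pi16* (7.53 ± 1.30), *Eln* (6.55 ± 0.78), *Cd248* (5.99 ± 0.99), *Pdgfra* (3.62 ± 0.58), *C1qtnf1* (3.59 ± 0.49), *Angptl2* (2.66 ± 0.28), *Emilin1* (1.76 ± 0.13) and *Postn* (0.99 ± 0.30, SD, n = 5). Saline gave the same order, from *Dcn* at 97.7 ± 13.3 to *Postn* at 0.61 ± 0.06 CPM per kb (SD, n = 5). The neighbours *Pi16* and *Eln* overlapped in both groups, and *Pi16* was the higher in 4 of 5 mice in each. *Cd248* and *Eln* also overlapped in both groups. *Cd248* stood above *Pdgfra* in 5 of 5 ethanol mice without overlap, but in 3 of 5 saline mice, where the ranges overlapped. *Pdgfra* and *C1qtnf1* could not be ordered in ethanol, where *Pdgfra* was the higher in 3 of 5 mice, while in saline it was the higher in 5 of 5 although the ranges overlapped.

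Promoter sequences of 6 of the 10 genes were read from a table made from RefSeq on GRCm38.p6, as the 250 bases before an annotated start. Those of *Gas1*, *Postn* and *Emilin1*, whose groups did not overlap, and of *Pdgfra*, whose groups did, are shown 5′ to 3′ on the gene's own strand, so that the differences in base composition can be seen. Capitals mark matches to the motifs searched.
*Gas1* (chr13:60177536-60177785, minus strand): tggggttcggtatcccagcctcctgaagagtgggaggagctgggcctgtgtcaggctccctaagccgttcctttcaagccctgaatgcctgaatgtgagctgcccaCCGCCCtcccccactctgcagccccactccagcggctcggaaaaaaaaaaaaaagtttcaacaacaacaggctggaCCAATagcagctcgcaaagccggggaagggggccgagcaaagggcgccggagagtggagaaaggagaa
*Postn* (chr3:54360857-54361106, plus strand): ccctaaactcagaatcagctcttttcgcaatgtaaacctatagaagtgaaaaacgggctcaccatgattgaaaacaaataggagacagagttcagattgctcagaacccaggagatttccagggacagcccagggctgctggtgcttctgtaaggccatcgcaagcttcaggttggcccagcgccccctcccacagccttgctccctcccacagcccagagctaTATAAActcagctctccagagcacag
*Emilin1* (chr5:30913536-30913785, plus strand): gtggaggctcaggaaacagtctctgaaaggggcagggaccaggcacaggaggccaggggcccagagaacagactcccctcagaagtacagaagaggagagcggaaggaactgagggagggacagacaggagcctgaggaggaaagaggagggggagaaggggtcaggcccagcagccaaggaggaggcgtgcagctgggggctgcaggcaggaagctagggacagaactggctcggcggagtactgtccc
*Pdgfra* (chr5:75152001-75152250, plus strand): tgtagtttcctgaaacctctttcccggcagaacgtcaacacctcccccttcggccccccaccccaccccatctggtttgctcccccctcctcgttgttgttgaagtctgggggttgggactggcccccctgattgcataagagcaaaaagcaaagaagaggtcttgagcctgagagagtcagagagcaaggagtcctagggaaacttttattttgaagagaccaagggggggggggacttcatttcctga
The motifs were the TATA box (TATAAA), the GC box of Sp and KLF factors (GGGCGG), the NF-Y box (CCAAT), the TEAD motif (CATTCC), the AP-1 motif (TGACTCA), the E-box of CLOCK and BMAL1 (CACGTG) and the palindromic glucocorticoid receptor motif, each on both strands and with no overlap among the marked matches in these windows. *Postn* has a second window in the table, chr3:54359017-54359266, with 40.4% GC and none of the 7 motifs. The *Postn* window shown holds a TATA box that begins 26 bases before the start, a motif found in 12.4% of the 32851 promoters of the table. *Gas1* holds a GC box, read here as CCGCCC, and an NF-Y box, found in 32.7% and 33.8% of promoters. The windows of *Angptl2* and *Pi16* are not shown. That of *Angptl2* (66.8% GC) holds GC boxes that begin 83 and 8 bases before the start. That of *Pi16* (52.4% GC) holds an NF-Y box that begins 64 bases before it. The *Emilin1* and *Pdgfra* windows hold none of the 7 motifs. GC content was 58.8% for *Gas1*, 52.0% for the *Postn* window shown, 63.2% for *Emilin1* and 54.4% for *Pdgfra*, where the median of the table is 52.4%. The RefSeq start of *Emilin1* lies inside the GENCODE gene given above, so its window overlaps that gene. A match describes the letters alone.

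Set against *Dcn* in the same library, a scale free of library scaling, 4 of the 8 other progenitor and matrix genes did not overlap between the groups, all higher in ethanol, against 0.478% of the 13179 other tested genes on the same scale. The genes were chosen on this contrast, so nothing is read from that count. *Cd248* stood at 26.0 to 30.7 reads per 1000 *Dcn* reads in ethanol (median 27.1) and at 11.1 to 23.8 in saline (median 16.5). *Emilin1* stood at 14.3 to 17.2 in ethanol and 8.63 to 11.7 in saline, *Eln* at 85.7 to 104.7 in ethanol and 47.4 to 80.6 in saline, and *C1qtnf1* at 17.7 to 22.1 in ethanol and 10.8 to 16.1 in saline. *Pi16*, *Gas1*, *Postn* and *Angptl2* overlapped on this scale. Against *Pdgfra* all 8 overlapped, where 0.0531% of the 13179 other tested genes were higher in ethanol without overlap. *Cd248*, for example, stood at 37.3 to 56.9 reads per 100 *Pdgfra* reads in ethanol and at 19.9 to 43.5 in saline, where saline 34 and its low *Pdgfra* count gave the top value.

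Variation from mouse to mouse within a group leaves out the difference between group means. The genes were chosen in these same libraries, where spread within a group also bears on the choice. Independence of the choice was therefore not shown. Log2 CPM was centred on each group's mean, and the 45 pairs of genes were compared over the 10 libraries, with two-sided exact permutation over the 14400 orders within groups. Pearson's r was above 0 for 35 pairs, with a median of 0.38 and a range from -0.56 to 0.83, where the median r of the members with all tested genes was 0.011. All tested genes include those of every cell type in the tissue, and r among other stromal genes was not compared. No pair passed after adjustment over the 45 pairs (smallest adjusted p 0.194 for r and 0.160 for rho), and 6 had an unadjusted p of r under 0.05. *Pdgfra* and *Dcn* had the highest r, 0.83 (exact permutation p = 0.0105, adjusted p = 0.194, Spearman's rho 0.54, exact permutation p = 0.137, adjusted p = 0.347). Without ethanol 59 and saline 34, the mice farthest from the median of *Pdgfra*, r was 0.27, so this relation rests on those mice.

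*Cd248* and *Pi16* followed at r = 0.82 (exact permutation p = 0.00993, adjusted p = 0.194, rho 0.81, exact permutation p = 0.00785, adjusted p = 0.160), and r was again 0.82 without ethanol 59 and saline 38, the mice farthest from the median of *Cd248*. *Pi16* and *C1qtnf1* stood at r = 0.74 (exact permutation p = 0.0233, adjusted p = 0.194, rho 0.85, exact permutation p = 0.00931, adjusted p = 0.160), or 0.96 without ethanol 59 and saline 36. *Cd248* and *Pdgfra* gave r = -0.08 (exact permutation p = 0.830, adjusted p = 0.868, rho -0.19, exact permutation p = 0.623, adjusted p = 0.769), and -0.58 without ethanol 59 and saline 38. *Gas1* and *Angptl2* gave the lowest r, -0.56 (exact permutation p = 0.116, adjusted p = 0.373, rho -0.54, exact permutation p = 0.139, adjusted p = 0.347), or -0.33 without ethanol 57 and saline 36. Ethanol 59 was below its group mean for 9 of the 10 genes, with a median deviation of -0.25 on the log2 scale, and saline 32 was above its group mean for all 10, by a median of 0.14. Without ethanol 59 the median r over the 45 pairs was 0.25.

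**Figure D3:**
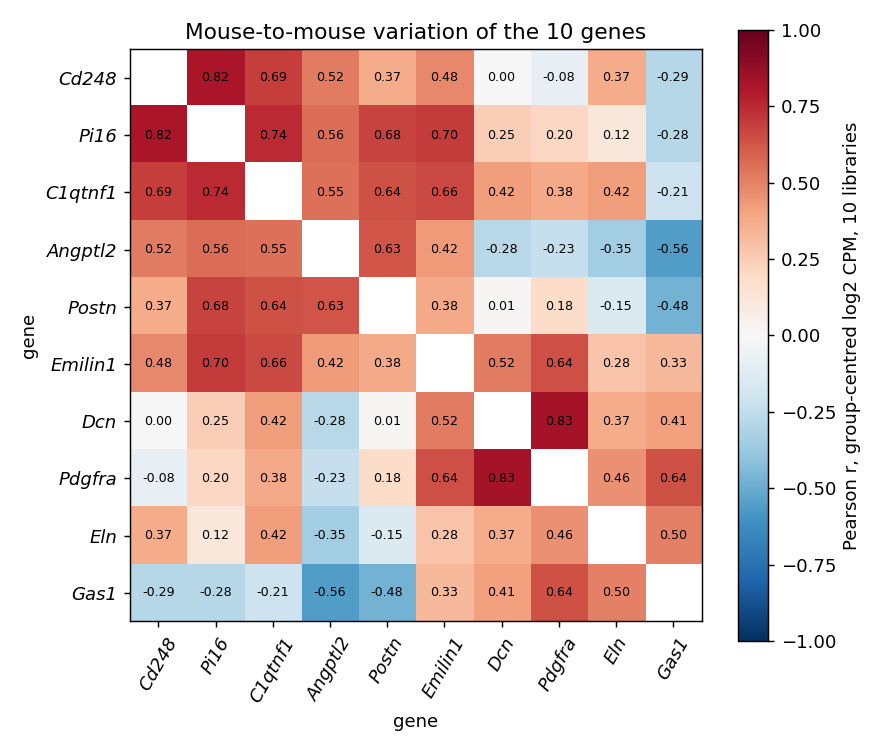
Pearson's r between each pair of the 10 genes, from log2 CPM centred within each group over 10 libraries; red is positive and blue negative, on a scale from -1 to 1. The genes were ordered after their values were seen, with *Cd248*, *Pi16* and *C1qtnf1* together at the upper left (r from 0.69 to 0.82) and *Gas1* last, at negative values with 5 genes.

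Of 10806 genes at a mean of at least 2 CPM, those whose centred pattern over the 10 libraries was most like that of a member were named by Pearson's r, as a description chosen from many genes and without a test. For *Cd248* they were *Wisp2* (r = 0.96), which encodes CCN5, a matricellular protein, *Sipa1l3* (0.95) and *Nkd1* (0.94), a Wnt pathway antagonist. For *Dcn* they were *Apod* (0.95), the lipocalin gene of apolipoprotein D, *Prkd1* (0.95) and the proprotein convertase gene *Pcsk5* (0.95). For *Pdgfra* they were *Maml1* (0.97), a Notch co-activator, *Slc8b1* (0.97), a mitochondrial sodium and calcium exchanger, and *Fbxl20* (0.96). For *Eln* they were *Ptrf* (0.93), the caveolar coat gene of cavin-1, *S1pr4* (0.92) and *Bcl10* (0.91). The log2 fold changes of these 12 genes ran from -0.28 for *Fbxl20* to 0.52 for *Nkd1*, and of those most like *Cd248* the others were at 0.47 (*Wisp2*) and 0.18 (*Sipa1l3*).

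Other genes of the same pathways were read from 12 lists without the 10 genes, 136 tested genes in all. None passed FDR 0.05 in edgeR or limma-voom, and DESeq2 called 3: *C1qtnf6* (adjusted p = 0.0130), *Col6a2* (adjusted p = 0.0337) and *Smoc1* (adjusted p = 0.0477). At an unadjusted edgeR p under 0.05, 36 of the 136 (26.5%) were higher in ethanol, against 6.22% of all tested genes, and 4 (2.94%) were lower, against 5.91%. The groups did not overlap for 10 of them (7.35%, all higher in ethanol), against 1.36%. The median log2 fold change was 0.16. These lists were chosen with earlier results of these data known, and their genes were read in the same 10 mice. Their shares are therefore a description and no separate support for the 10 genes. With the adipocyte marker mean as a covariate, 14 of the 136 had an unadjusted p under 0.05, where all tested genes gave 890. Of the 30 genes named by rule from these lists, 7 kept an unadjusted p under 0.05 in every alternative run, namely *Clec3b*, *Thy1*, *Pcolce*, *Emilin2*, *Podn*, *Col6a2* and *C1qtnf6*, and 20 lost it with that covariate.

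All 24 further fibroblast progenitor markers were tested, among them *Ly6a*, *Cd34*, *Dpp4* and *Dpt*, so the cells that the 10 genes are named for were represented in the tissue. Of the 24, 20 had positive values (median 0.14), 6 (25%) were higher and 0 lower at an unadjusted edgeR p under 0.05, and 4 (16.7%) did not overlap. *Ly6a*, *Cd34*, *Dpp4* and *Dpt* were at 0.10, 0.17, 0.22 and 0.12 on the log2 scale, and none of these reached that threshold. The negative values were -0.09 for *Sema3c*, -0.06 for *Cd55*, -0.0088 for *Pdpn* and -0.0047 for *Scara5*. *Clec3b*, encoding tetranectin, ran 29.9 to 35.4 CPM in ethanol (median 31.9) and 17.2 to 27.6 CPM in saline (median 25.003), a log2 fold change of 0.46 ± 0.11 (SE, FDR = 0.287, edgeR). *Pcolce*, an enhancer of procollagen processing, ran 23.7 to 35.6 CPM in ethanol (median 26.1) and 15.8 to 22.6 CPM in saline (median 20.4), at 0.49 ± 0.13 (SE). *Thy1*, a surface glycoprotein, was at 0.50 ± 0.16, and *Col15a1*, a basement membrane collagen of vessel-associated fibroblasts, at 0.66 ± 0.25 (SE). *Col15a1* lost its unadjusted p under 0.05 without ethanol 57, without ethanol 59 or without saline 38. The gelatinase gene *Mmp2* was at 0.31 ± 0.09 and overlapped between the groups. With the adipocyte marker mean as a covariate the median was 0.06 and the count of 6 was 3.

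Of 22 elastic fibre assembly genes, 18 had positive values (median 0.19), and 9 (40.9%) were higher and 0 lower at an unadjusted p under 0.05, while none was free of overlap. *Emilin2*, a paralogue of *Emilin1*, ran 7.85 to 10.5 CPM in ethanol (median 10.1) and 5.91 to 8.46 CPM in saline (median 6.95), a log2 fold change of 0.45 ± 0.12 (SE). *Loxl1*, an enzyme that cross-links elastin, was at 0.38 ± 0.13, and *Ltbp4*, a latent TGF-beta binding protein needed for elastic fibre assembly, at 0.24 ± 0.09 (SE). *Mfap2*, *Efemp2* (fibulin-4) and *Fbln1* were also among the 9, at 0.45, 0.33 and 0.29. The 9 also include the endothelial gene *Mmrn2*, at 0.26, which is in the list of CD248 relatives and ligands as well. *Lox*, the lysyl oxidase gene, stood lower in the mean, at 44.4 ± 10.6 CPM in ethanol and 62.0 ± 27.1 CPM in saline (SD, n = 5 each). This difference, -0.48 ± 0.30 on the log2 scale (SE), did not pass the unadjusted threshold. The other negative values in the list were -0.16 for *Loxl4*, -0.14 for *Atp7a* and -0.12 for *Ltbp2*. The count of 9 was 4 without ethanol 60, 5 without ethanol 60 and saline 36, 14 without ethanol 59, 4 with the GC trend removed and 2 with the adipocyte covariate.

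Interstitial collagens (chains of collagens I, III, V and VI) were positive for 9 of 9 genes (median 0.44), with 6 (66.7%) higher at an unadjusted p under 0.05 and 2 free of overlap. *Col6a2* ran 36.6 to 50.1 CPM in ethanol (median 43.8) and 22.8 to 35.3 CPM in saline (median 33.8), a log2 fold change of 0.54 ± 0.13 (SE), and *Col5a1*, *Col6a1* and *Col3a1* were at 0.44 ± 0.14, 0.45 ± 0.12 and 0.46 ± 0.14 (SE). The median was 0.24 and the count 1 with the adipocyte covariate, and the median was 0.26 without saline 36 and ethanol 60. Small leucine-rich proteoglycans, the family of *Dcn*, had 3 of 11 higher (*Podn* at 0.42 ± 0.11, *Chad* at 0.42 ± 0.14 and *Prelp* at 0.29 ± 0.10, SE) and 1 lower (*Aspn* at -0.23), a total of 4 that was 1 with the adipocyte covariate. Of 18 matricellular and adhesive genes 4 were higher and 0 lower, namely *Smoc1* (1.01 ± 0.29), *Tnc* (0.38 ± 0.15), *Sparcl1* (0.28 ± 0.09) and *Thbs2* (0.30). *Tnc* lost its unadjusted p under 0.05 when any of 5 single libraries was left out. *Smoc1* was at 10.3 CPM in ethanol 60, against 3.91 to 6.36 CPM in the other ethanol libraries. Its lowest log2 fold change was 0.74 with 1 library left out and 0.32 over all alternatives. With the adipocyte covariate *Smoc1* also lost its unadjusted p under 0.05. The count of 4 was 7 without ethanol 59 and 2 without ethanol 57, without ethanol 62 or after thinning, and 1 with the adipocyte covariate.

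Ligands, receptors and relatives of the 10 genes gave small counts. Of 6 PDGF genes, the ligand *Pdgfb* was higher at 0.24 ± 0.09 and the ligand *Pdgfd* lower at -0.51 ± 0.19 (SE, unadjusted p = 0.0208 for *Pdgfb* and 0.0155 for *Pdgfd* in the edgeR fit). In the hedgehog pathway, which GAS1 serves, 10 of 11 genes were positive, against 50.2% of all tested genes. *Gli3*, a transcription factor, was higher at 0.44 ± 0.20 (SE). *Ptch1* was the negative gene, at -0.19, and *Gli1*, at 0.26, did not pass the unadjusted threshold. Among 7 relatives of *C1qtnf1*, *C1qtnf6* ran 3.34 to 4.86 CPM in ethanol (median 4.06) and 1.87 to 2.84 CPM in saline (median 2.68), a log2 fold change of 0.68 ± 0.15 (SE), and *C1qtnf2* was at 0.39 ± 0.17. None of 4 relatives of *Angptl2* had an unadjusted edgeR p under 0.05. Of 9 matrix-binding integrins, which include receptors of periostin, *Itgb5* was higher (0.20 ± 0.08) and *Itga5* lower (-0.29 ± 0.12). Of 5 genes for lectins related to CD248 and its ligands, the endothelial genes *Clec14a* (0.24 ± 0.10) and *Mmrn2* (0.26 ± 0.11) were higher. TGF-beta ligands, receptors and early targets were split, 6 positive and 6 negative, with *Tgfb2* higher at 0.23 ± 0.09 and *Smad4* lower at -0.23 ± 0.10. Apart from *C1qtnf6* and *Pdgfd*, each gene called higher or lower here lost its unadjusted p under 0.05 when 1 or more single libraries were left out, as did *C1qtnf2*. *Pdgfd* lost it with the adipocyte covariate.

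**Figure D4:**
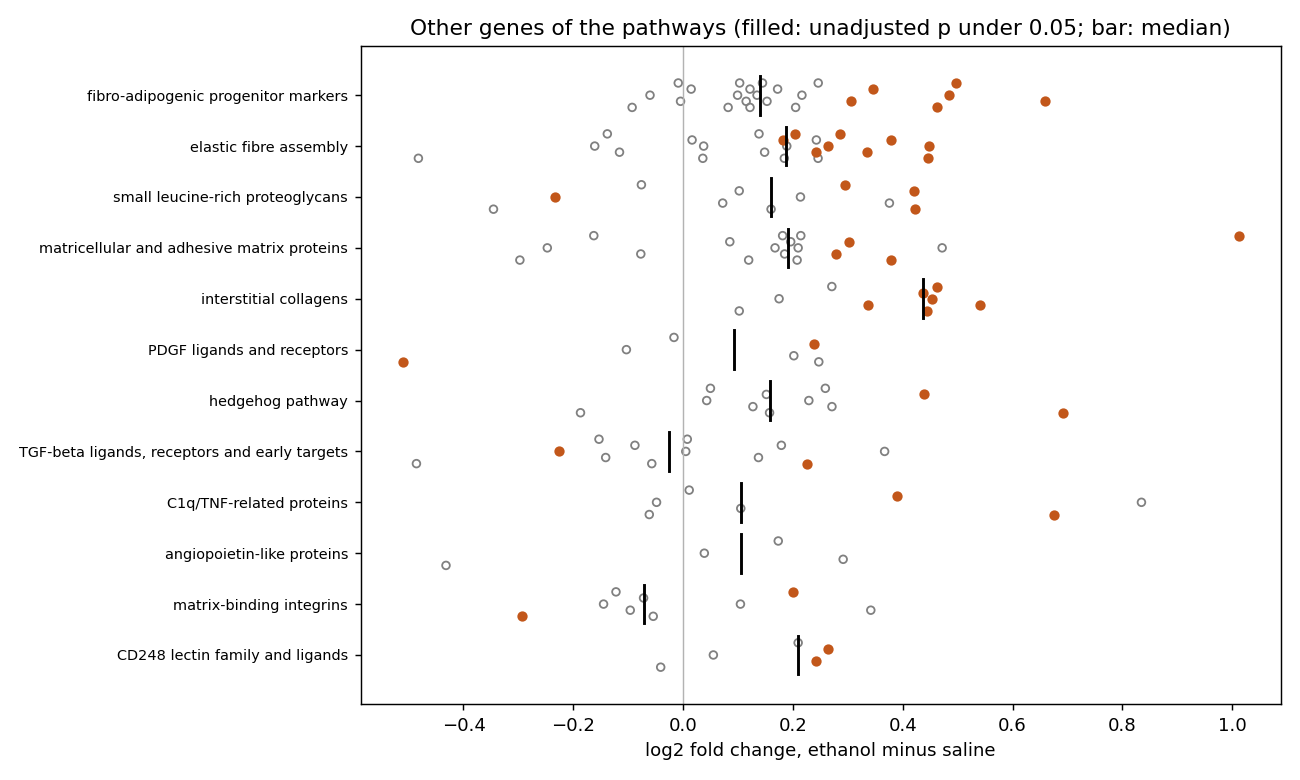
Log2 fold change, ethanol minus saline, of every tested gene of the 12 lists, 1 row a list. Filled points have an unadjusted edgeR p under 0.05 and black bars are medians. Counting each gene once, 36 filled points lie right of 0 and 4 left of it, with interstitial collagens at the highest median (0.44) and matrix-binding integrins at the lowest (-0.07).

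Markers of other cells that make some of these proteins were read beside them. Adipocyte markers were positive for 10 of 11 genes (median 0.83), with 5 higher at an unadjusted edgeR p under 0.05 and 3 free of overlap. Their summed level was 1268 to 2261 CPM in ethanol and 1274 to 1399 CPM in saline, with medians of 1416 CPM in ethanol and 1362 CPM in saline, none of the 11 at 0 and ethanol 60 the highest library. The same mouse held the highest *Postn*, *Pi16*, *Pdgfra* and *Emilin1* levels. The largest parts of the sum were *Cd36* (median 729 CPM in ethanol and 761 CPM in saline) and *Fabp4* (413 CPM in ethanol and 341 CPM in saline). The covariate was not this sum but the mean of log2 CPM over the markers, in which each marker weighs the same. Given this marker mean as a covariate, the log2 fold changes were 0.59 for *Cd248*, 0.53 for *Eln*, 0.50 for *Gas1*, 0.48 for *Emilin1*, 0.44 for *C1qtnf1* and 0.40 for *Angptl2*, beside 0.28 for *Postn* and 0.24 for *Pi16*. This covariate itself ran higher in ethanol and can take up part of the contrast.

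Pericytes and smooth muscle cells are another source of *Eln* and *Cd248*. Their markers summed to 550 to 638 CPM in ethanol and 563 to 694 CPM in saline. The largest part of this sum was *Abcc9* (median 212 CPM in ethanol and 229 CPM in saline). Of the 9 markers, 7 had positive values (median 0.08), where 50.2% of all tested genes were positive. At an unadjusted p under 0.05, 0 were higher and 1 lower, against 6.22% and 5.91% of all tested genes. Tendon markers summed to 401 to 529 CPM in ethanol and 346 to 520 CPM in saline, with 2 of 8 higher, and endothelial markers to 432 to 548 CPM in ethanol and 408 to 508 CPM in saline, with 2 of 8 higher. The sums of macrophage, Schwann cell, satellite cell, neutrophil, erythroid and myofibre markers also overlapped between the groups. Positive values were held by 8 of 8 tendon, 7 of 8 endothelial, 7 of 8 macrophage and 5 of 6 Schwann cell markers tested. The shares were 7 of 10 for myofibre, 3 of 6 for satellite cell, 0 of 4 for neutrophil and 0 of 2 for erythroid markers. Neutrophil markers, at sums of 1.16 to 4.86 CPM in ethanol and 2.92 to 13.8 CPM in saline, had a median of -1.62. Of these 4, 2 were lower at an unadjusted p under 0.05. The part of tendon, vessel and immune cells in the differences was not tested. Of annotated genes that overlap the 10, *Ralgps1*, which lies on the strand opposite to *Angptl2*, had 882 counts over the 10 libraries, *Gm11747* beside *C1qtnf1* had 13 and *Mir7025* within *Pdgfra* had 2. How the counting treated strand is not given in the labels, so reads of *Angptl2* and *Ralgps1* may have been shared.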

How the data were processed

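Poly(A) RNA of 10 calf muscles (5 ethanol, 5 saline) was sequenced from a single end, per the labels' protocols. The authors deposited raw counts, whole numbers, in 1 table with symbols as rows and libraries as columns. The build mm10 and the tools DESeq2 1.6.3 and TopHat2 are named, with no role, per the submitters' processing notes. Not given in the sources used here are the counter, its annotation and its use of strand. In 27 rows the symbol had become a calendar date, and these stayed in the totals.

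Genes were kept by filterByExpr (minimum count 10, minimum total 15), leaving 13180, and tested with edgeR 4.0.16 (TMM scaling, robust quasi-likelihood F test, Benjamini-Hochberg adjustment over all tested genes). All 10 members passed this filter. Standard errors are the log2 fold change over the square root of F, and log2 CPM carries a prior count of 2. Whether the mice were separate beyond their numbers is not stated, so p-values measure the spread between these samples. Alternatives were DESeq2 1.42.0, limma-voom 3.58.1, other scalings and filters, thinning to the lowest total, removal of each library's GC trend (lowess, span 0.3, GC known for 12699 tested genes, 96.4%), the adipocyte marker mean as a covariate, and leaving libraries out. Exonic length, GC and coordinates come from GENCODE M21 on GRCm38, promoters from RefSeq on GRCm38.p6. The edgeR procedure was tested on simulated counts drawn independently for each gene. Such counts lack the variation that genes share from mouse to mouse, so no value above rests on that test.

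The 10 genes, the 12 pathway lists and the 10 marker lists were chosen with earlier results of these data known. Genes named from the pathway lists were those without overlap between the groups and up to 3 with the smallest p under 0.05 in each, and likeness was ranked for *Pdgfra*, *Cd248*, *Eln* and *Dcn*. The genes *Aspn*, *Thbs2*, *Mfap2*, *Efemp2*, *Fbln1*, *Lox*, *Loxl4*, *Atp7a* and *Ltbp2* were added after their values were seen. The same holds for *Sema3c*, *Cd55*, *Pdpn*, *Scara5*, *Ptch1*, *Gli1*, *Cd36*, *Fabp4* and *Abcc9*, and for the values of *Ly6a*, *Cd34*, *Dpp4* and *Dpt*. Of the genes that the rule names, 1 is not reported here.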

Additional observations from a re-analysis of the deposited data

Results flagged for a closer look

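In 80 groups of 5 libraries (the 10 genes and the 30 named pathway genes, in each treatment), 5 held a library far from the other 4, where chance gives about 1 in 20. *Dcn* was at 445 CPM in ethanol 59, against 568 to 607 CPM in the other ethanol libraries. *Thy1* was at 3.04 CPM in saline 36, against 4.87 to 5.29 CPM in the other saline libraries. *Smoc1* was at 1.43 CPM in saline 36, against 3.00 to 3.59 CPM in the others. *Pdgfd* was at 1.62 CPM in saline 39, against 2.79 to 3.20 CPM in the others. *C1qtnf2* was at 0.95 CPM in saline 38, against 1.48 to 1.66 CPM in the others.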

How the results depend on the processing

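No paired analysis was possible because the mouse numbers of the groups do not overlap. Genes at FDR 0.05 numbered 55 with DESeq2 and from 0 to 1 with 1 library left out, the 1 appearing without ethanol 57 and without saline 34. Genes at an unadjusted p under 0.05 numbered 890, and pathway genes 14, with the adipocyte covariate. Genes whose groups did not overlap numbered from 388 to 648 with 1 library left out and 585 without saline 36 and ethanol 60, where smaller groups overlap less often by construction. The median log2 fold change of the 10 genes stayed within 0.42 to 0.57 in the 21 alternatives, and 9 of the 10 kept a positive sign in all of them, *Dcn* being the exception. *Pdgfra*, among the 9, was at 0.03 with the adipocyte covariate. The choice of genes used this contrast and the alternatives used the same libraries, so the stable sign is no separate support. Total count scaling moved the split of genes at an unadjusted p under 0.05 to 1029 higher and 437 lower, against 820 and 779, and the median of all genes to 0.040. Leaving out libraries changed the median r between the 10 genes to between 0.25 and 0.46. Of the 10 genes, counts limit *Postn*, *Emilin1* and *C1qtnf1* most, at 170 to 391 reads a library. Some named pathway genes had fewer reads a library: *Gli3* 29 to 66, *C1qtnf2* 31 to 67, *Pdgfd* 38 to 127, *Smoc1* 56 to 217 and *C1qtnf6* 61 to 145.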
